A study of Mus musculus with 6 samples.

Results

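The heterogeneous nuclear ribonucleoprotein (hnRNP) genes and the serine/arginine-rich (SR) splicing factor genes were examined in hippocampal RNA from young and aged mice. The members were all genes whose symbol begins with Hnrnp (20 genes) or is Srsf followed by a number (11 genes), 31 of 16703 genes in the deposited table. The tissue came from male mice of the inbred strain C57BL/6, 3 of them 3-month-old (young) and 3 of them 20-month-old (aged), with no genetic change or treatment in either group and 1 library per mouse. Poly(A)-enriched RNA was sequenced with a kit that marks the strand. The mice had been picked by an earlier qPCR assay whose criterion the methods do not name. The paper reports qRT-PCR of the ageing genes Neat1, C4b, Trem2 and Cldn2, without stating whether it served this choice. Trem2 and Cldn2 are also among the microglial and choroid plexus markers summed below. Values are CPM, counts scaled to the library total, taken back from the deposited log2 values of counts that the authors had adjusted for 1 factor of unwanted variation.

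Both families bind pre-mRNA as it is transcribed and help to set which exons are kept. SR proteins carry RNA recognition motifs and a tail of arginine and serine repeats. They mostly bind exonic enhancers, recruit the spliceosome and are controlled by phosphorylation. The hnRNP proteins package nascent RNA, often bind silencers and can oppose SR proteins at the same exon, and several also act in RNA export, transport into dendrites, decay and translation. Many of these genes limit their own output through exons that send the transcript to nonsense-mediated decay, so a gene-level value adds up transcripts that do and do not encode the full protein.

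To show the DNA next to which these genes start, 250 bases upstream of the most upstream RefSeq start are given for the 3 members of smallest p, Hnrnph1, Hnrnpa2b1 and Srsf1, and for Srsf12, the member with the highest fold change. Capitals mark CCAAT (the CCAAT box), GGGCGG (the GC box, bound by Sp1-type factors) and TATAAA (the TATA box) on either strand. The sequences are RefSeq's on GRCm38.p6, written 5′ to 3′ on the strand of the gene, at chr11:50376740-50376989 (plus strand) for Hnrnph1, chr6:51469895-51470144 (minus strand) for Hnrnpa2b1, chr11:88047123-88047372 (plus strand) for Srsf1 and chr4:33209022-33209271 (plus strand) for Srsf12.
Hnrnph1: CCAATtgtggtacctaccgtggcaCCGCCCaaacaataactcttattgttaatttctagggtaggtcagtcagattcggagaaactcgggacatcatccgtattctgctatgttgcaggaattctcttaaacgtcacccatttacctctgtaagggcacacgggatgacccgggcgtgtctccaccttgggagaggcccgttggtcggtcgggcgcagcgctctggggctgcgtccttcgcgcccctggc
Hnrnpa2b1: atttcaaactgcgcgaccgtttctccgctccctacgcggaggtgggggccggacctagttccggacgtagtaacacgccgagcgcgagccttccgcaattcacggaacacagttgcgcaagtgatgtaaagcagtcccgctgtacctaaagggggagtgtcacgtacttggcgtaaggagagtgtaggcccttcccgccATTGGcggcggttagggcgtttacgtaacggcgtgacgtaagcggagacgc
Srsf1: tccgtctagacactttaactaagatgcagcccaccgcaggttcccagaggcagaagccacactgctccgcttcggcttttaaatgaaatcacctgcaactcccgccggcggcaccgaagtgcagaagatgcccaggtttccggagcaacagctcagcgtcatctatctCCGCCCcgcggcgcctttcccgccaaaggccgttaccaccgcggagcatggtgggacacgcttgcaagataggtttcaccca
Srsf12: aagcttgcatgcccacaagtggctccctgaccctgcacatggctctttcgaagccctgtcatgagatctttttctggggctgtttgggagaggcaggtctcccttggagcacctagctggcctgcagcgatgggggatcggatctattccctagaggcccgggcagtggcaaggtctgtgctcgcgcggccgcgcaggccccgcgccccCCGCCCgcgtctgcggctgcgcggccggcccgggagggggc

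None of these 4 windows holds TATAAA, and Hnrnpa2b1 is the one of the 4 without a GC box. RefSeq promoters were matched for 29 of the 31 members, which have 41 annotated starts between them. Hnrnpll and Hnrnpul2 were not matched. A GC box lay in 33 of the 41 upstream windows (80.5%), against 32.7% of 32851 windows of the same length over all genes. A CCAAT box lay in 20 of 41 (48.8%, against 33.8%) and a TATA box in 3 of 41 (7.32%, against 12.4%). The median GC content was 68% in the members' windows and 52.4% in all windows, and windows of genes with several starts overlap. These are matches of letters and not measured binding sites.

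All 8 neuronal markers searched for were present in each library, with sums of 9722 to 10080 CPM. The 7 markers of hippocampal subfields summed to 1035.5 to 1097 CPM in the young libraries and to less, 993.66 to 1007 CPM, in each aged one. The 6 astrocyte markers summed to 3861 to 4079 CPM in the young libraries and to 4179 to 4217 CPM in the aged ones. This higher sum was not shared by the list, since 3 of the 6 had a fold change below 0 on the log2 scale. Their median log2 fold change was 0.008 and the largest 0.49. The 8 microglial markers summed to 336 to 349 CPM in the young libraries and 430 to 440 CPM in the aged ones. The 10 markers of choroid plexus, the epithelium that makes cerebrospinal fluid and lies against the hippocampus, summed to 2725 to 2806 CPM in young mice, 2515 CPM in Aged 1, 327 CPM in Aged 2 and 575 CPM in Aged 3, and none was at 0. In bulk tissue, fewer cells of a type and less RNA per cell cannot be told apart. The totals of adjusted counts (15238190 to 17548247) are not the sequencing depth, which is unknown here. The mean squared difference between Aged 2 and Aged 3 was 0.5615 times that expected from counting at the adjusted totals. Every other pair of the same age had a larger ratio (1.42 to 2.96 times). With depth unknown, the true counting noise is unknown too, so the ratio serves only to rank the pairs. Aged 2 and Aged 3 also carry the largest weights in the removed factor (-0.52 and 0.75). They were kept as 2 samples, so that SDs of the aged group include this close pair. Counting them as 1 sample left no member past the threshold.

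Every member was well expressed. The lowest adjusted count of any member in any library was 335. Per kilobase of exon, the level ran from 5.31 CPM per kb (Hnrnpr) to 77.7 CPM per kb (Hnrnpa0), and 17 of the 31 members were among the top 10% of genes on this scale. Hnrnpa0, which binds AU-rich elements, was followed by Hnrnpa2b1 at 71.8, Srsf5 at 70.5, Hnrnpa1 at 64.8 and Hnrnpk at 57.7 CPM per kb. Srsf12 was the lowest SR gene at 7.50 CPM per kb, above only Hnrnpr and Hnrnpll (5.70 CPM per kb) among all members. Hnrnpr has the longest exon annotation of the members (22199 bases over all its transcripts, against 1653 for Srsf9), and the length of every member was taken from such a union, so a gene with long rare transcripts is placed too low.

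**Figure D1:**
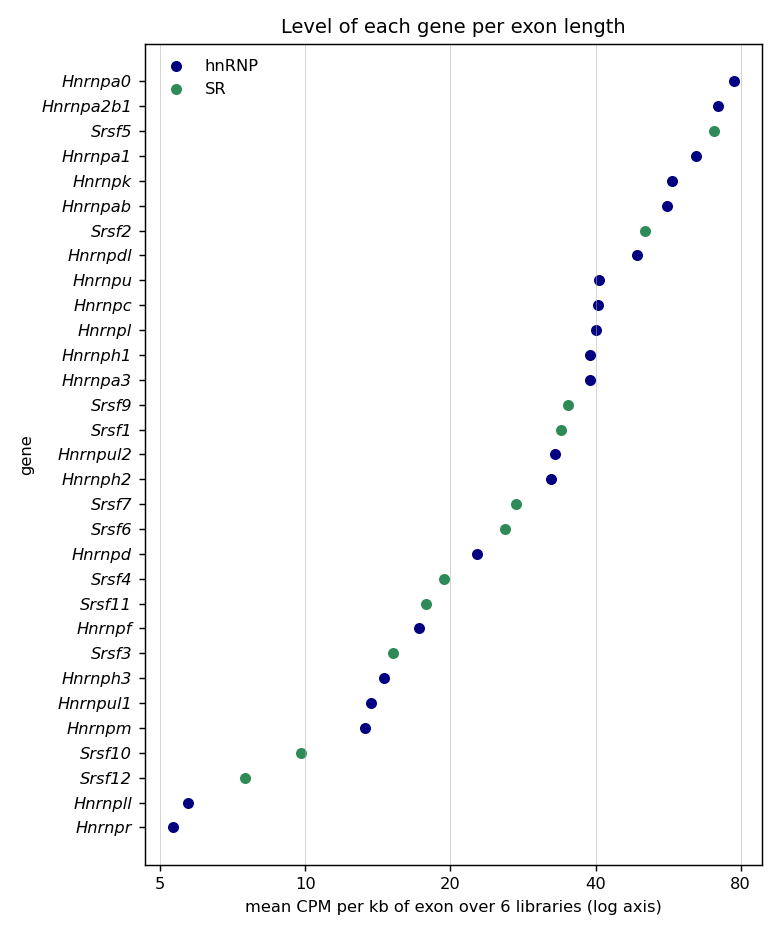
Mean level of each hnRNP (blue) and SR (green) gene over the 6 libraries, in CPM per kb of exon on a log axis. Hnrnpa0 (77.7) and Hnrnpa2b1 (71.8) are at the top, and Hnrnpr (5.31) is at the bottom.

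With age, hnRNP and SR transcripts differed little. No member passed an adjusted p of 0.05 (limma, Benjamini-Hochberg over 16703 genes), higher or lower, where 1.20% of all genes were called higher and 0.784% lower in aged mice. At an unadjusted p under 0.05, 4 of the 31 members were lower (Hnrnph1, Hnrnpa2b1, Hnrnpul2 and Srsf1) and 0 higher, where 6.87% of all genes were lower and 8.00% higher. The fold change was below 0 on the log2 scale in 25 of the 31 members (80.6%), against 48.6% of all genes and 51% of the 10407 genes that averaged 10 CPM or more. The median log2 fold change was -0.05 over the 20 hnRNP genes and -0.05 over the 11 SR genes, against 0.0049 over all genes. These counts rest on libraries in which the members vary together, as described further on, so the 31 genes are not 31 independent observations.

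The intervals of this fit give a range for the difference of each single gene. They are not adjusted for the number of members. Like the p-values, they rest on the removed factor, so they are somewhat too narrow. Over all members the 95% intervals ran from 0.799-fold (the lower end for Srsf1) to 1.24-fold (the upper end for Srsf12), aged over young. For 6 members, all hnRNP genes (Hnrnpk, Hnrnpc, Hnrnpul1, Hnrnpd, Hnrnpl and Hnrnpa3), the whole interval lay within a 1.1-fold change either way. The lowest estimates over the 21 alternative fits lay outside that range for Hnrnpul1 (-0.166 on the log2 scale) and Hnrnpl (-0.1417). The median standard error was 0.05 for hnRNP and 0.06 for SR genes on the log2 scale, against 0.0996 over all genes.

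**Figure D2:**
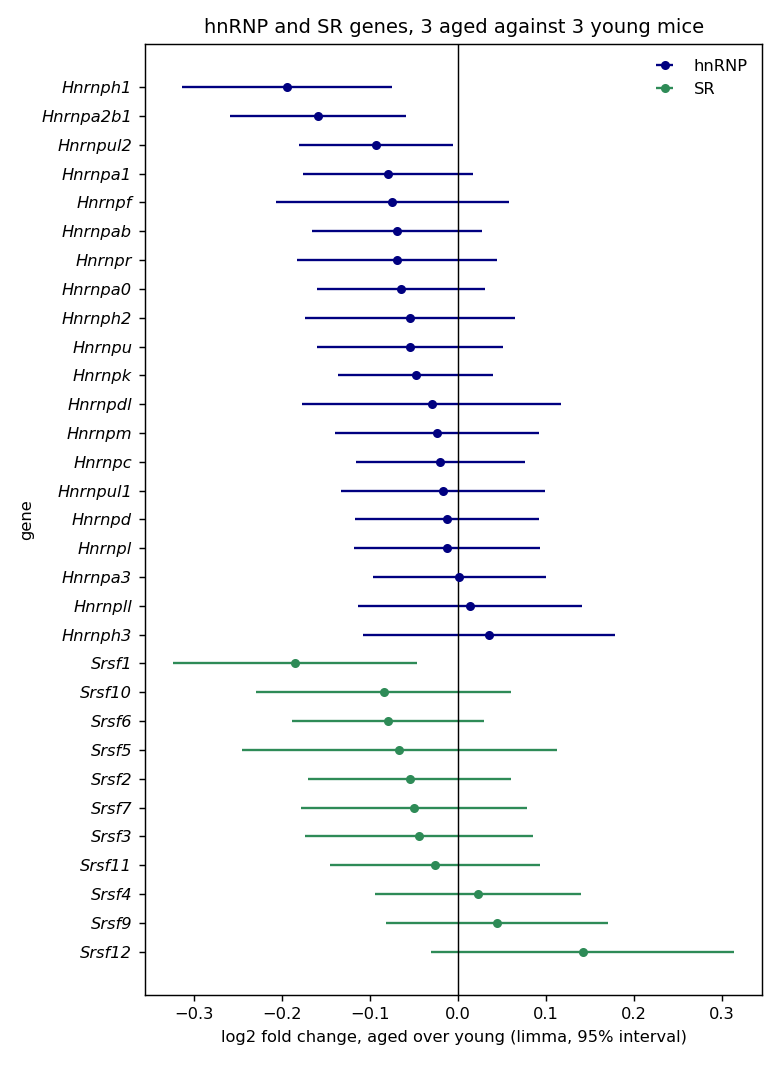
Log2 fold change (aged over young) of each hnRNP (blue) and SR (green) gene, as the limma estimate with its 95% interval. The estimates run from -0.19 (Hnrnph1) to 0.14 (Srsf12), 4 intervals lie wholly below 0, and no adjusted p is below 0.05.

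Among the hnRNP A/B genes, 6 of 7 had a fold change below 0, with a median of -0.06 on the log2 scale. Hnrnpa2b1 encodes a protein that binds trafficking signals in neuronal mRNAs and is named in the paper as an indirect reader of N6-methyladenosine. The paper also states, without showing the data, that no reader of this mark was found to change in expression with age. It does not say whether Hnrnpa2b1 was among them. The level of Hnrnpa2b1 was 510 CPM in Young 1, 524 CPM in Young 2 and 464 CPM in Young 3. In Aged 1, Aged 2 and Aged 3 it was 454, 436 and 450.0 CPM. The groups did not overlap, and Young 3 was the young library nearest to the aged ones. The mean was 499 ± 31.4 CPM in the young and 446 ± 9.56 CPM in the aged group (SD, n = 3 each). The log2 fold change was -0.16 (SE 0.05, 95% interval -0.26 to -0.06, a difference of -10.5%), with an adjusted p of 0.109, short of the threshold.

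Hnrnpa1, a splicing repressor that opposes Srsf1 in the choice of splice sites, was at 215, 215 and 199.9 CPM in the 3 young libraries and at 197, 198 and 200.1 CPM in the 3 aged ones. Young 3 lay among the aged libraries and the other 2 young libraries above them. The log2 fold change was -0.08 (95% interval -0.18 to 0.02, adjusted p 0.450). Hnrnpa1 has many processed pseudogenes, and reads that match several places were left out, so its level is less certain than those of genes without copies. Hnrnpa0, the highest member per kilobase, was at 215, 219 and 204 CPM in young and 207, 199 and 204 CPM in aged mice, which overlap (adjusted p 0.556). Hnrnpab, which binds RNA and single-stranded DNA, had separate ranges by age, 156 to 164 CPM in young and 152 to 155 CPM in aged mice, with an adjusted p of 0.523.

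The remaining A/B genes were closer to no difference. Hnrnpa3, which binds the same trafficking signals as Hnrnpa2b1, averaged 210.3 CPM in the young and 210.4 CPM in the aged group, with an interval of -6.49% to 7.18%. Hnrnpd, also called AUF1, whose protein steers mRNAs with AU-rich elements to decay, averaged 167 and 166 CPM. Its relative Hnrnpdl had a wide young range, from 206 CPM in Young 3 to 264 CPM in Young 2, with the 3 aged libraries (226 to 239 CPM) inside it.

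The F/H genes encode proteins that bind runs of G. Hnrnph1 had the most negative fold change of the 31 members. It was at 252 CPM in Young 1, 256 CPM in Young 2 and 223 CPM in Young 3, and at 223, 202 and 213 CPM in the 3 aged libraries. Young 1 and Young 2 lay above every aged library, while Young 3 lay just below Aged 1 (222.9 against 223.1 CPM). The mean was 244 ± 18 CPM in the young and 213 ± 10.4 CPM in the aged group (SD, n = 3 each). The log2 fold change was -0.19 (SE 0.06, 95% interval -0.31 to -0.07, a difference of -12.6%), with an adjusted p of 0.101.

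Its paralogs gave smaller estimates. Hnrnph2, the X-linked gene nearest in sequence to Hnrnph1, had a log2 fold change of -0.05, with 132 to 154 CPM in young and 137 to 141 CPM in aged mice. Hnrnpf was at -0.07 with 51.3 to 56.2 and 50.3 to 52.1 CPM, and Hnrnph3 at 0.03 with 43.6 to 48.5 and 45.1 to 47.4 CPM. The ranges of the age groups overlapped for all 3, with adjusted p of 0.709, 0.634 and 0.860.

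The U group holds large nuclear proteins that bind RNA and chromatin. Hnrnpul2, which acts in the DNA damage response, had the tightest values of any member that separated by age, at 242, 245 and 239 CPM in young and 227, 226 and 227 CPM in aged mice. The groups did not overlap, and the log2 fold change was -0.09 (SE 0.04, 95% interval -0.18 to -0.01, adjusted p 0.299). Hnrnpu, the scaffold attachment factor, ranged from 444 to 501 CPM in young and from 445 to 479 CPM in aged mice. Hnrnpul1 ranged from 114 to 127 CPM and from 113 to 121 CPM.

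The other hnRNP genes each stand for a separate kind of RNA binding, and their age groups overlapped. Hnrnpk, whose KH domains bind stretches of C, was at 367 to 388 CPM in young and 358 to 375 CPM in aged mice. Hnrnpc, which binds runs of U on nascent RNA, was at 169.7 to 181 and 171 to 175 CPM. Hnrnpl, which binds CA repeats, was at 228 to 257 and 234 to 243 CPM, and its paralog Hnrnpll at 62.4 to 70.2 and 66.6 to 67.1 CPM. Hnrnpm was at 100.2 to 111 and 102 to 107 CPM. Hnrnpr, which carries β-actin mRNA in mouse motor axons and is the lowest member per kilobase, was at 125, 124 and 113 CPM in young and 117, 112 and 115 CPM in aged mice, with an adjusted p of 0.60.

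Among the 8 classical SR genes, 6 had a fold change below 0. Srsf1, a founding member of the family and a general activator of exon inclusion, was at 215 CPM in Young 1, 223 CPM in Young 2 and 182 CPM in Young 3. In aged mice it was at 189 CPM in Aged 1, 172 CPM in Aged 2 and 182.5 CPM in Aged 3. Young 1 and Young 2 lay above the aged libraries and Young 3 (182.3 CPM) among them. The mean was 207 ± 21.3 CPM in the young and 181 ± 8.74 CPM in the aged group (SD, n = 3 each). The log2 fold change was -0.19 (SE 0.07, 95% interval -0.32 to -0.05, a difference of -12.1%), with an adjusted p of 0.184.

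Srsf6 was at 130.1, 134 and 121 CPM in young and 121, 120.1 and 123 CPM in aged mice, with Young 3 inside the aged range (log2 fold change -0.08, adjusted p 0.513). Srsf5, the most abundant SR gene per kilobase, was at 304 CPM in Young 1, 326 CPM in Young 2 and 237 CPM in Young 3, against 282, 258 and 280.5 CPM in the aged libraries. The young libraries spanned the aged ones on both sides. Their SD of 0.24 on the log2 scale was the widest of any member in either group, and the log2 fold change of -0.07 had an interval of -0.25 to 0.11. Its standard error of 0.08 was the largest of the 31 members.

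Srsf2, a speckle protein that binds exonic enhancers, had a log2 fold change of -0.06. Srsf3 and Srsf7, which shuttle and act in mRNA export, had -0.04 and -0.05. Srsf4 and Srsf9 had 0.02 and 0.04. Their adjusted p ran from 0.699 (Srsf2) to 0.896 (Srsf4). Srsf4 was the steadiest member in young mice, at 68.1 to 69.0 CPM, with 67.8 to 71.4 CPM in aged mice. Srsf3 also has pseudogene copies, with the same limit as for Hnrnpa1.

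The other 3 SR genes did not share a direction. Srsf12, a close relative of Srsf10, was at 23.0, 22.5 and 21.8 CPM in young and 25.1, 24.4 and 24.8 CPM in aged mice. It was the only member with every aged library above every young one, where 14.5% of all genes did so. Its log2 fold change was 0.14 (SE 0.08, 95% interval -0.03 to 0.31, a difference of 10.3%), with an adjusted p of 0.450. Srsf10, a repressor of splicing once it loses phosphate after heat shock, was at 75.7, 68.8 and 67.1 CPM in young and 72.4, 62.8 and 64.5 CPM in aged mice, which overlap (log2 fold change -0.08, adjusted p 0.621). Srsf11 was at 139 to 162 CPM in young and 145 to 151 CPM in aged mice. In the opposite direction, 3 members had every aged library below every young one (Hnrnpa2b1, Hnrnpul2 and Hnrnpab), where 12.7% of all genes did.

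**Figure D3:**
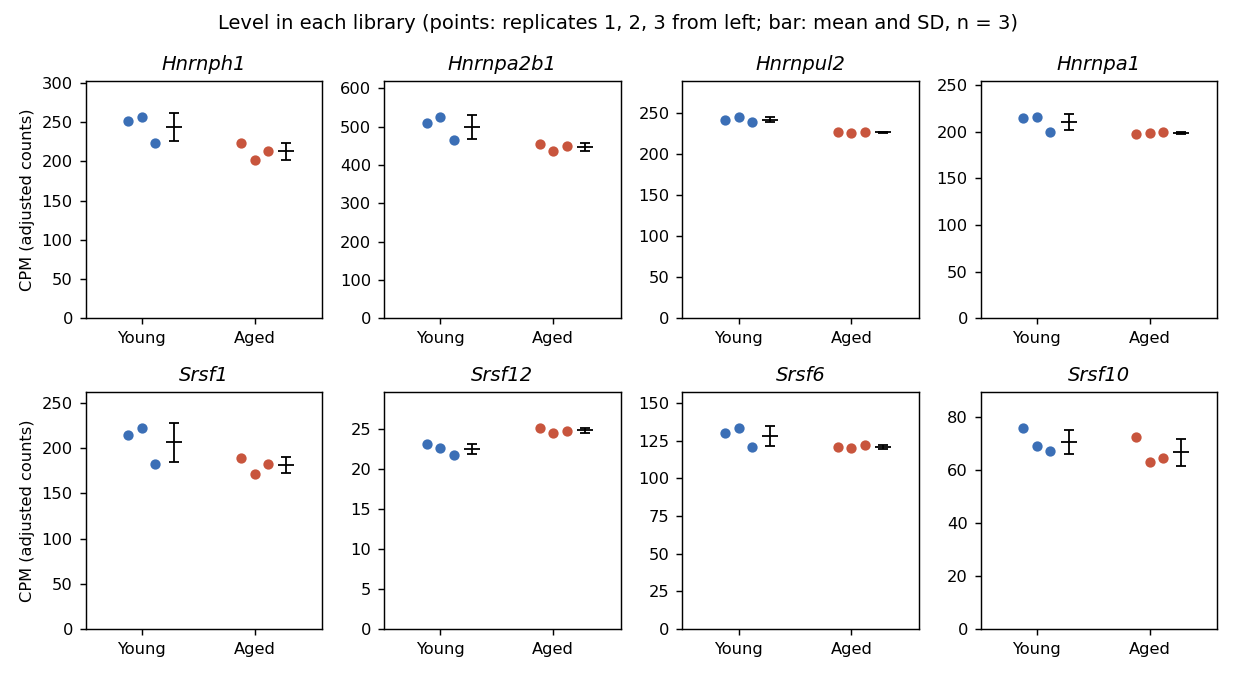
CPM of the 4 hnRNP and 4 SR genes of smallest p in each library (blue points, young; red points, aged; replicates 1 to 3 from left), with the mean and SD of the 3 libraries per group as black bars. Every vertical axis starts at 0. Hnrnpa2b1 and Hnrnpul2 are lower in every aged library, Srsf12 is higher in every aged library, and the other 5 overlap.

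The members varied together from library to library. Young 3 was the lowest young library in 28 of the 31 members (90.3%) and in 11 of 11 SR genes, against 37.7% of all genes. Young 2 was the highest young library in 23 of 31 (74.2%, against 34% of all genes). Among aged mice, Aged 2 was lowest in 22 of 31 (71%, against 36.7%) and in 10 of 11 SR genes. The exceptions to the low Young 3 were Hnrnpf, Hnrnpul1 and Hnrnph3. The median deviation of the members from their own mean over the 6 libraries was 0.06, 0.08 and -0.06 in Young 1, 2 and 3, and -0.01, -0.05 and -0.01 in Aged 1, 2 and 3, on the log2 scale. On this measure Young 3 was lower than each aged library, and the other young libraries were higher. Over all genes this median lay between -0.0071 and 0.0096 in every library.

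**Figure D4:**
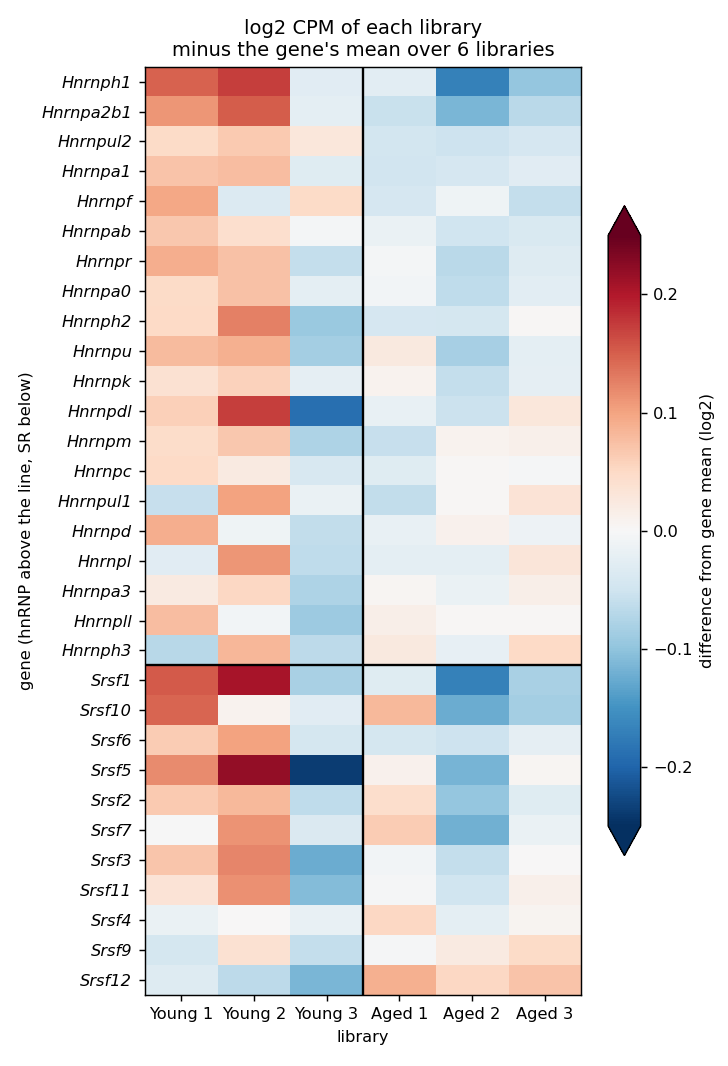
Log2 CPM of each member in each library minus the mean of the gene over the 6 libraries (red, above the mean; blue, below), with hnRNP genes above the horizontal line and SR genes below it, each ordered by fold change. Young 1 and Young 2 are mostly red, and Young 3 is blue in most rows, with the deepest blue at Srsf5 and Hnrnpdl.

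The summed levels overlapped between the age groups. The 20 hnRNP genes summed to 4191, 4273 and 3882 CPM in the young libraries and to 3963, 3864 and 3959.5 CPM in the aged ones. The means were 4115.5 ± 206 and 3929 ± 56.1 CPM (SD, n = 3 each), a difference of -4.53%. The 11 SR genes summed to 1405, 1458 and 1240.1 CPM in young and 1343.5, 1253 and 1318 CPM in aged mice, with means of 1368 ± 114 and 1305 ± 46.7 CPM, a difference of -4.59%. Young 3 lay within the aged range for hnRNP genes and below it for SR genes. The young SD was larger than the aged SD in 28 of 31 members, against 70.9% of all genes that averaged 10 CPM or more. These SDs come after the removal of a factor that weighs most on Aged 2 and Aged 3 (-0.52 and 0.75). The part of that removal in the smaller aged SDs was not tested.

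Of the marker sums, Young 3 had the lowest for oligodendrocytes among young mice (5699 CPM, against 6183 and 6068) and the highest for neurons (10080 CPM, against 9722 and 9959). It also had the highest young sums for astrocytes (4079 CPM), microglia (349 CPM) and endothelium (168 CPM). The oligodendrocyte sums of Aged 1, Aged 2 and Aged 3 were 7073, 6094 and 6444.5 CPM. The part of any of these cell types, of hippocampal subfields or of choroid plexus in the members' values was not tested.

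Leaving out Young 3 changed the calls. Without it, Hnrnph1 (log2 fold change -0.26, adjusted p 0.0202), Hnrnpa2b1 (-0.21, 0.0246) and Srsf1 (-0.27, 0.0166) passed the threshold in limma, 27 of 31 members had a fold change below 0 and 12 were lower at an unadjusted p under 0.05. In that fit 0.593% of all genes were called lower, 49.5% had a fold change below 0 and 6.87% were lower at an unadjusted p under 0.05. No label sets Young 3 apart, and no quality value for single libraries was available. Young 3 was kept. Leaving out Young 2 did the opposite, with 17 of 31 members below 0 and log2 fold changes of -0.15 for Hnrnph1 (adjusted p 0.232), -0.12 for Hnrnpa2b1 (0.265) and -0.12 for Srsf1 (0.416). Without Aged 2, 19 of 31 were below 0 with the removed factor as a term and 25 without it. The median over the SR genes was -0.10 without Young 3, 0.01 without Young 2 and 0.0007 without Aged 2, and the median over the hnRNP genes was -0.08 without Young 3 and -0.02 without Young 2. The fold changes of Hnrnph1, Hnrnpa2b1, Srsf1 and Hnrnpul2 stayed below 0 in all 21 alternative fits. The extremes were -0.26 and -0.14 for Hnrnph1 and -0.21 and -0.12 for Hnrnpa2b1. Hnrnpa1, Hnrnpab, Hnrnpa0, Hnrnpr, Hnrnpk, Hnrnpu, Hnrnpc and Srsf6 also stayed below 0 in all 21. The fold changes of Srsf12 and Srsf4 stayed above 0 in all 21. These fits reuse the same 6 libraries.

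Few genes that work with these 2 families passed the threshold. The share with a fold change below 0 on the log2 scale differed between lists. Among 17 hnRNP proteins that carry other names, such as Ptbp1, 1 passed the threshold. Cirbp, the cold-inducible RNA-binding protein, rose from 81.8, 77.0 and 62.6 CPM in young to 95.6, 92.2 and 95.5 CPM in aged mice. Its log2 fold change was 0.36 (SE 0.08, adjusted p 0.0283), and the groups did not overlap. The call was lost in 10 of the 21 alternatives, including the omission of Aged 1 (adjusted p 0.115), Aged 2 (0.0979) or Aged 3 (0.342) and the fit without the removed factor (0.0544). The other 16 did not pass, and the median of the 17 was -0.02. A fold change below 0 was found in 10 of the 17 (58.8%, against 48.6% of all genes).

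Of 24 SR-related proteins, which have arginine and serine repeats without the standard SR architecture, 21 had a fold change below 0, with a median of -0.08. None passed the threshold and 9 were lower at an unadjusted p under 0.05, where 6.87% of all genes were. Young 3 was again the lowest young library for most of these 9, so the 24 genes are not 24 independent observations. Srrm2, a large scaffold of nuclear speckles, had the smallest p. It was at 595, 701 and 563 CPM in young and 487, 519 and 539 CPM in aged mice, without overlap. Its log2 fold change was -0.26 (SE 0.06) with an adjusted p of 0.0508, just short of the threshold, and alternatives gave adjusted p from 0.00277 (without Aged 3) to 0.461 (without a variance trend). The log2 fold change was -0.16 without Young 2 and -0.52 without Aged 3. In the fit without Aged 3, the removed factor correlated with age at -0.754. Age and that factor are poorly separated there, so its estimate and p-value are less secure. Luc7l, a U1-associated factor, was at 124, 126 and 123.1 CPM in young and 117, 107 and 111 CPM in aged mice (log2 fold change -0.16, adjusted p 0.144).

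Of 12 SR protein kinases and import receptors, 10 had a fold change below 0, none passed the threshold and 2 were lower at an unadjusted p under 0.05. Of all genes, 48.6% had a fold change below 0 and 6.87% were lower at that p. Prpf4b, a kinase of the spliceosome, averaged 102 ± 8.76 CPM in the young and 88.3 ± 3.68 CPM in the aged group (log2 fold change -0.20, adjusted p 0.139). Clk2, which phosphorylates SR proteins in the nucleus, averaged 39.4 ± 2.15 and 35.2 ± 1.44 CPM (-0.16, adjusted p 0.318). Both genes were lower in every aged library than in any young one, where 12.7% of all genes were.

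Of 27 neuronal and tissue splicing regulators, 24 were in the table and none passed. Of these 24, 16 had a fold change below 0 (66.7%), with a median of -0.04. Nova1, a neuronal factor that binds YCAY, averaged 36.8 ± 3.93 CPM in the young and 44.5 ± 2.05 CPM in the aged group (log2 fold change 0.28, adjusted p 0.106). Rbfox1, which binds UGCAUG, averaged 309.9 ± 8.87 and 289 ± 2.69 CPM (-0.10, adjusted p 0.263). Of 74 core spliceosome genes, 44 had a fold change below 0 and none passed, with 3 higher and 6 lower at an unadjusted p under 0.05 (8.00% and 6.87% of all genes) and a median of -0.02. Snrpn, an Sm protein gene that shares its locus with Snurf, averaged 193.5 and 213 CPM (0.14, adjusted p 0.134), and Sf3b3, a subunit of the U2 particle, 95.3 and 85.0 CPM (-0.16, adjusted p 0.145).

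**Figure D5:**
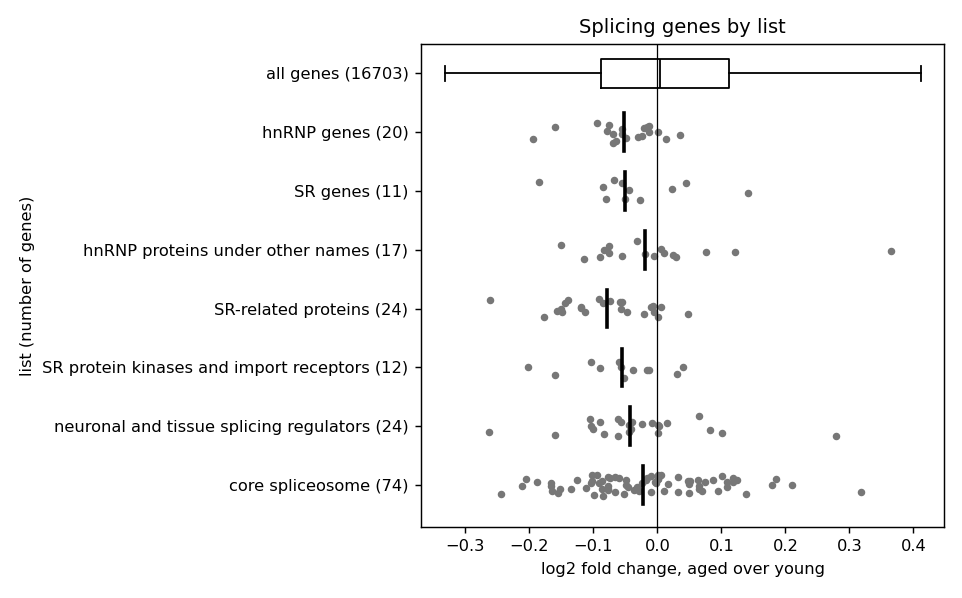
Log2 fold changes (aged over young) of the genes in each splicing list, 1 grey point per gene with a black bar at the list median, and over all 16703 genes as a box (quartiles and median, whiskers from the 5th to the 95th percentile). The medians are -0.05 for hnRNP and SR genes, -0.08 for SR-related proteins and -0.02 for the core spliceosome, and Cirbp is the rightmost point at 0.36.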

How the data were processed

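Hippocampal RNA-seq libraries of 3 young and 3 aged mice were analysed, grouped by the sample labels. The authors deposited log2 CPM values per library, a log2 average and a log2 fold change for 16703 genes, with a likelihood ratio (a score), a p-value and an FDR. The authors' own comparison was not used. According to the submitters' notes, the authors trimmed with Trim Galore 0.6.6, aligned with STAR 2.7.8a to mm39 and used edgeR 3.32.1 in R 4.05. In the extended methods the authors instead trimmed with Trimmomatic, ran STAR in another version, kept uniquely mapped reads and used edgeR with RUV, which removes factors of unwanted variation. No source used here states whether counting used strand.

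The deposited log2 values were turned back into counts, whole to within 5.82e-09. Of the 6 directions that independent libraries span, 1 is missing from these values, found over 1791 genes with a mean above 2000 adjusted counts, and its correlation with age was -0.0208. With depth unknown, no counting interval was computed. The deposited log2 CPM were fitted with limma 3.58.1 (R 4.3.3, trended variance) on age plus that direction, which left 3 residual degrees of freedom beside 12.3 from the prior. P-values were adjusted by Benjamini-Hochberg over 16703 genes and called below 0.05. The factor came from the same libraries, so p-values are somewhat too small. They rest on the spread between mice that were selected beforehand, drawn through the prior toward that of genes of similar level. The fit was tested on simulated data in which the removed direction was known. That test does not cover a direction estimated from the same libraries. Its pass mark for recovery was set on changes larger than those of the members.

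Exon lengths are unions of GENCODE M21 exons on GRCm38, found for all 31 members. Promoters are RefSeq's on GRCm38.p6, another build than the authors', and no other coordinates are given. Values per library are given for members past the threshold (none), for Hnrnpa2b1, for the 4 hnRNP and 4 SR genes of smallest p, and for the highest and lowest expressed member of each family, and ranges or means for the rest. Of other lists, genes past the threshold or else the 2 of smallest p are named. Members, lists and tests were chosen with earlier results of these data known. Alternatives were other scalings, pseudocounts, filters and variance models, the replicate number as a block, fits without the removed direction, and each library left out.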

Additional observations from a re-analysis of the deposited data

How the results depend on the processing

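In 21 alternative fits, 0 hnRNP and 0 SR genes were called higher in aged mice. Leaving out 1 library gave 0 to 2 hnRNP genes and 0 to 1 SR genes called lower, and the upper ends are the fits without Young 3, with the removed direction as a term and without it. The hnRNP median ran from -0.08 to -0.02 over these fits. The SR median ran from -0.10 (without Young 3) to 0.01 (without Young 2), and was also above 0 without Aged 2 with the term (0.0007). Of the fold changes of single members, 12 moved by more than the spread between replicates without Aged 3, where the removed direction correlated with age at -0.754, and 1 without Aged 2. The numbers of genes called over the whole table were 200 higher and 131 lower, 0 and 0 without a variance trend, 319 and 204 without the removed direction, and, over the fits that omit a library, 59 to 263 higher and 22 to 159 lower. Scaling to the upper quartile put the median of all genes at 0.0175, and 24 members were then below 0.

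The replicate numbers were not used as pairs in the main fit. The correlations of same-numbered deviations were 0.109, -0.209 and -0.415, and those of other pairs ran from -0.471 to 0.836 (Young 2 with Aged 3). Removing a direction across the libraries shapes these correlations, so they cannot decide whether the numbers pair the samples. With the replicate number as a block and no term for the removed direction, 1 hnRNP gene, Hnrnph1, was called lower (log2 fold change -0.19, adjusted p 0.0479), and with the block and the term none was (Hnrnph1 at 0.0542). Srrm2, not called in the main fit, passed in both block fits (adjusted p 0.00494 with the term and 0.0182 without it). Some fits without the block called it too, such as that on log2(CPM + 1) (adjusted p 0.046) and that without Young 3 (0.0141). With 3 mice per group and a median standard error of 0.05 on the log2 scale, a difference as small as the family medians was not detectable for a single member.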
